A study of Mus musculus with 57 samples.

Results

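The livers of 4 male C57BL/6JJcl mice that had received galactosamine intraperitoneally were compared with the livers of 17 vehicle mice of the same strain and sex. The members were chosen by their labels, and they are 4 of the 57 livers in the series, whose other mice received 1 of 6 further liver toxicants. All mice were of WT genotype, 6 weeks old at the start and acclimatised for 1 week, and they were dosed after a fast of 12 h. Livers were perfused and collected 24 h after dosing, and RNA came from part of the left lateral lobe. Of the vehicle mice, 13 had 0.5% methylcellulose through a gavage tube, 2 had 0.9% saline into the peritoneum and 2 had the same saline into a tail vein. The labels give neither the amount of galactosamine nor the liquid it was dissolved in, and corn oil, which they list among the vehicles, had no control mice. Each library is 1 mouse, and the labels do not say whether mice shared a cage, litter or day of dosing.

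Galactosamine is an amino sugar that hepatocytes take up and process through the enzymes of galactose metabolism. Its products bind uridine as UDP-sugar derivatives, so the hepatocyte runs short of the uridine nucleotides that RNA synthesis and glycosylation need. It is used to produce acute hepatocyte death in rodents and to make them sensitive to tumour necrosis factor. The comparison with all vehicle mice gives the response its best precision, and the comparison with the 2 intraperitoneal saline mice matches the route. Both comparisons share the 4 galactosamine mice and the 2 intraperitoneal saline mice, so agreement between them is not independent support.

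Each library held 15729159 to 22364210 estimated counts in the galactosamine mice and 13826343 to 35075809 in the vehicle mice. Levels are given in CPM (library-size-normalised counts) after TMM scaling, which aligns libraries on the bulk of their genes. This scaling mattered here: TMM factors were 1.53 to 1.75 in the galactosamine mice and 0.60 to 1.05 in the vehicle mice. Scaled to the library total, the median of all tested genes was a log2 fold change of 0.83, whereas TMM gave 0.01. Falls of less than about that size therefore depend on the scaling, and so do counts of genes higher and lower in a list. Within the galactosamine group, mouse 2 stood apart. Among genes that fell in both comparisons, it had the highest value of the 4 mice in 74.4% of 2365, and among genes that rose it had the lowest value in 63.6% of 1777. Its mean correlation with the other galactosamine mice was 0.901, against 0.921 to 0.935 for those, and its total was the lowest of the 4. Leaving it out gave 8229 called genes against all vehicle mice in place of 8014. Among the vehicle mice, intraperitoneal saline mouse 8 had 11.2% of its counts in 1 gene without a symbol, gavage mouse 1 had the lowest TMM factor, and gavage mouse 18 had the highest level of the acute phase gene Lcn2. Without these 3, 7992 genes were called.

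Against the 17 vehicle mice, galactosamine changed 8014 of 15255 genes tested (52.5%), with 3825 higher (25.1%) and 4189 lower (27.5%) at a Benjamini-Hochberg adjusted p under 0.05 in edgeR's quasi-likelihood test. A gene past this threshold is called. Scaled to the library total, the split was 8335 higher (54.6%) and 1759 lower (11.5%). Against the 2 intraperitoneal saline mice, 4416 of 15509 genes (28.5%) were called, 1981 higher (12.8%) and 2435 lower (15.7%), and the library total gave 5501 higher and 841 lower. In both comparisons and in the same direction, 4142 of 14804 genes (28.0%) were called, 1777 higher (12.0%) and 2365 lower (16.0%), and 0 were called in opposite directions. Scaled to the library total, 5230 were higher and 806 lower in both. The second comparison rests on few mice. Without galactosamine mouse 4 or 8 it called 2532 or 2443 genes, and without intraperitoneal saline mouse 7 or 8 it called 1837 or 1617. Leaving out either saline mouse leaves a group of 1, whose spread is assumed to be like that of the other group. The counts called in both comparisons were then 2393, 2327, 1600 and 1517. Intraperitoneal saline itself differed from the other 15 vehicle mice in 3 of 15455 genes (0.0194%), with 513 at an unadjusted p under 0.05. In place of 3, the count was 113 with DESeq2, 129 without intraperitoneal mouse 7 and 0 without mouse 8. All 4 galactosamine mice lay above all 17 vehicle mice in 1533 genes (10.0%) and below all of them in 2235 (14.7%).

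Genes were ranked if they had a named symbol, a mean of at least 5 CPM in the higher group and a call in both comparisons. All 4 galactosamine mice also had to lie beyond all 17 vehicle mice. The 12 genes with the largest rises under these conditions were barely expressed in vehicle livers. Tnfrsf10b, a death receptor for the ligand TRAIL, stood at 7.85, 18.9, 18.7 and 15.9 CPM in galactosamine mice 2, 4, 7 and 8, and at 0.0684 to 0.407 CPM (median 0.156) in the 17 vehicle mice. Its log2 fold change was 6.37 ± 0.28 (SE, n = 4 and 17; edgeR adjusted p = 5.95e-13), and 6.53 ± 0.58 against intraperitoneal saline. Gtse1, a regulator of the p53 protein in the G2 phase of the cell cycle, stood at 17.3, 30.5, 26.9 and 27.0 CPM, and no vehicle mouse exceeded 0.879 CPM. Phlda3, an inhibitor of the kinase Akt, reached 33.2 to 43.3 CPM against a vehicle median of 0.786 CPM. That the groups did not overlap for these 3 genes was a condition of the selection. The AP-1 subunit gene Fosl1 had the largest fitted rise of the 12, 7.93 ± 0.49, from a vehicle median of 0.0483 CPM to 4.74, 24.1, 26.0 and 8.02 CPM. For genes this close to 0 in vehicle livers, the fitted fold depends on the offset edgeR adds, and the levels are the firmer description. The others of the 12 were Inka2, Psrc1, Ddit4l, an inhibitor of mTORC1 signalling, the fatty acid elongase gene Elovl7, Eda2r, Cbr3, the histone gene Hist1h4c and H2-T-ps. Their log2 fold changes lay between 4.98 (Cbr3) and 7.39 (Inka2). Hist1h4c and H2-T-ps belong to families of near-identical copies among which reads can be split, so their values are uncertain.

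The 12 largest falls under the same conditions included genes that healthy liver expresses at high levels. In bulk RNA, fewer cells of a type and less RNA per cell cannot be told apart, and this holds for every hepatocyte gene described here. Cyp8b1, the sterol hydroxylase that sets the share of cholic acid among bile acids, stood at 4.60, 1.21, 0.754 and 1.14 CPM in the galactosamine mice and at 150 to 470 CPM (median 268) in the vehicle mice. Its log2 fold change was -7.25 ± 0.51 (edgeR adjusted p = 1.57e-10) and -7.05 ± 0.75 against intraperitoneal saline. Inmt, an indolethylamine N-methyltransferase, was among the more abundant transcripts of vehicle liver at 1068 to 3643 CPM and stood at 61.3, 22.4, 21.4 and 15.8 CPM after galactosamine. Thrsp, which promotes lipogenesis, went from a vehicle median of 458 CPM to 18.9, 3.28, 2.95 and 3.91 CPM. Mouse 2 was the highest of the 4 for all 3 genes. That every galactosamine mouse lay below every vehicle mouse was a condition of the selection. The steroid-reducing enzyme gene Hsd3b5 had a log2 fold change of -6.97 ± 0.62. The falls of Upp2, G6pc, Elovl3, Slc22a7, Cyp2c70, Ido2, Cenpm and Fn3k lay between -5.56 (Upp2) and -4.69 (Fn3k). With the library total these 12 falls remained between -6.35 (Cyp8b1) and -3.82 (Fn3k).

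**Figure D1:**
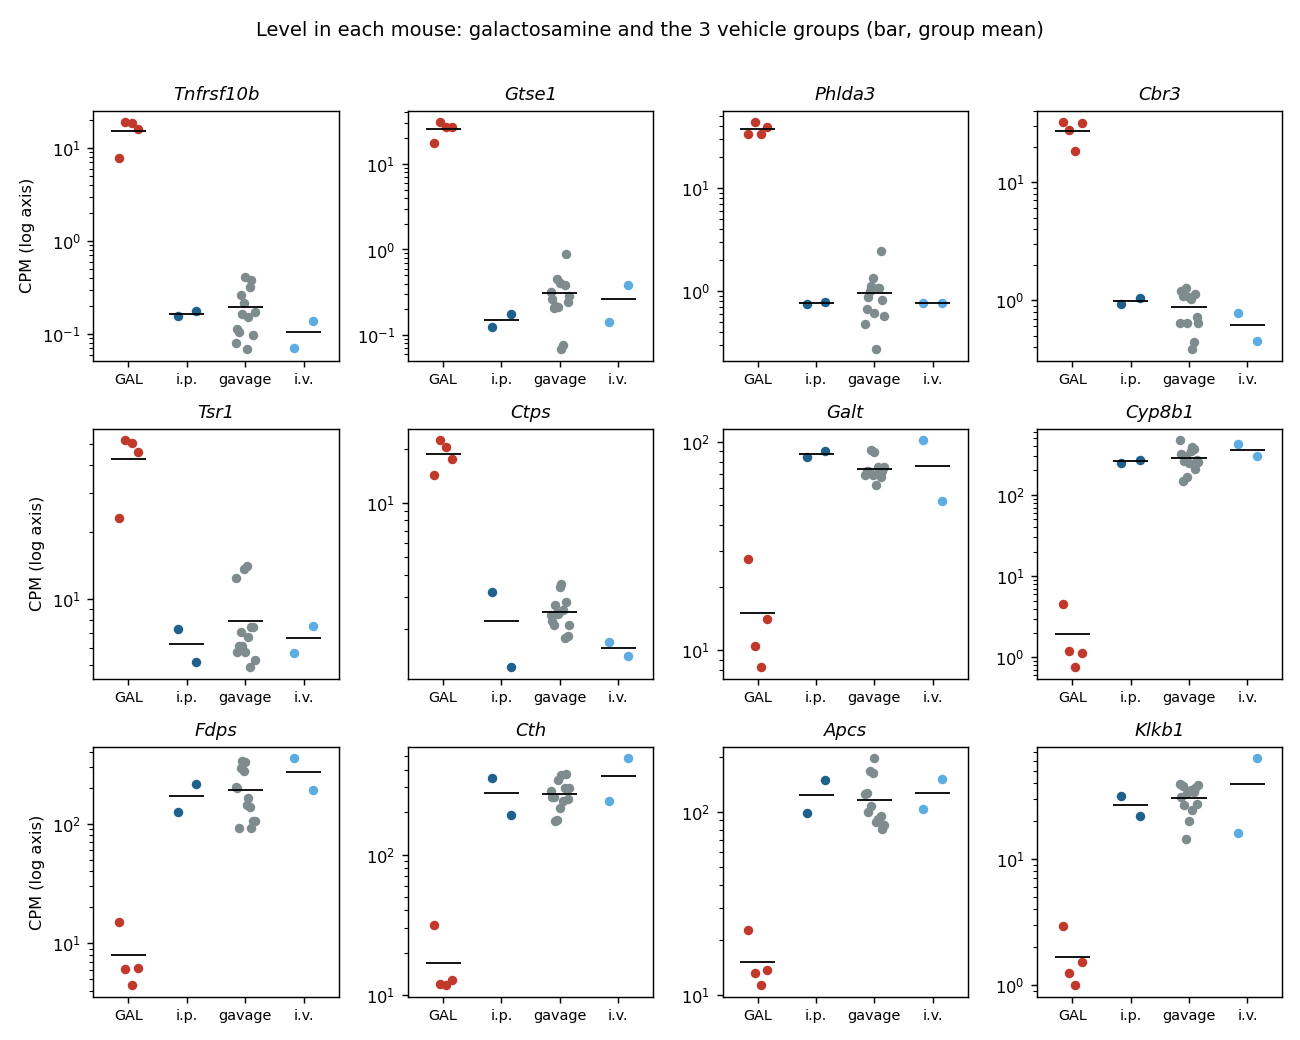
Levels in CPM (log axis) of 12 genes in the 4 galactosamine mice and in the intraperitoneal saline, gavage and intravenous saline mice; each point is 1 mouse and each bar a group mean. For all 12 genes the galactosamine points lie beyond every vehicle point, and galactosamine mouse 2, the first point of its group, often lies nearest to them.

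**Figure D2:**
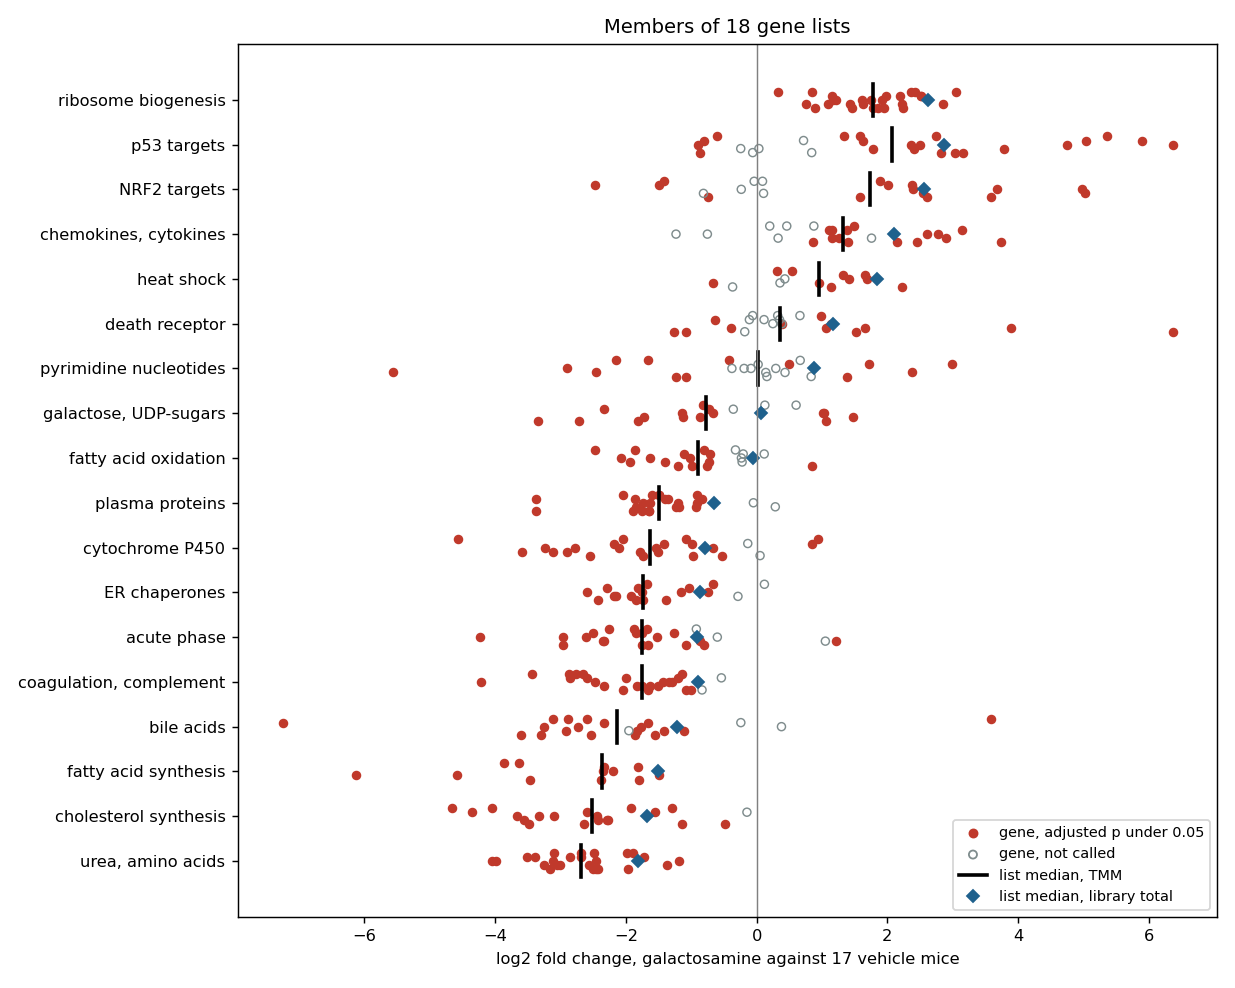
Log2 fold changes against the 17 vehicle mice for the tested genes of 18 lists; filled points passed the threshold, bars are list medians with TMM and diamonds list medians with the library total. Ribosome biogenesis (median 1.78) and p53 targets (2.07) lie to the right and urea and amino acid genes (-2.69) to the left, and the diamonds lie about 0.83 to the right of the bars.

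Galactose and UDP-sugar genes went both ways, and Galk1 and Galt were lower. Of 18 tested genes of galactose and UDP-sugar metabolism, 11 were lower and 4 higher against all vehicle mice, and 6 and 4 in both comparisons. Over all genes 27.5% were lower and 25.1% higher, and 16.0% and 12.0% in both. The list median was -0.78, beside 0.01 over all genes. Galk1 and Galt encode the kinase and the uridylyltransferase of the Leloir pathway, which handles galactose. Galt stood at 27.5, 10.5, 8.25 and 14.1 CPM against 52.1 to 102 CPM (-2.33 ± 0.24; edgeR adjusted p = 3.41e-08). Every galactosamine mouse was below all vehicle mice. Galk1 fell by 1.72 on the log2 scale (SE 0.31), and its highest galactosamine mouse, at 28.6 CPM, overlapped the lowest vehicle mouse at 22.4 CPM. Gne, which starts sialic acid synthesis from UDP-N-acetylglucosamine, had a log2 fold change of -2.71 ± 0.23, and Pgm1, a phosphoglucomutase, one of -1.81 ± 0.20. Ugp2, which makes UDP-glucose from UTP, had -1.13 ± 0.31 against all vehicle mice but was not called against intraperitoneal saline (-0.77 ± 0.28), nor with the library total (-0.26). The genes that rose were Pgm2 (1.47 ± 0.19), Ugdh, which oxidises UDP-glucose to UDP-glucuronate (1.06 ± 0.16), Mgea5, which removes O-linked N-acetylglucosamine from proteins (1.03 ± 0.17), and Uxs1, which makes UDP-xylose (1.01 ± 0.14). Ogt, the enzyme that adds this sugar, had 0.13 ± 0.22 and was not called, though the library total gave 0.95. Under the other scaling, by library total, 7 genes of the list were higher and 5 lower.

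Pyrimidine genes went both ways. De novo synthesis and salvage build uridine and cytidine nucleotides, and a separate chain of enzymes breaks uracil down to beta-alanine. Ctps, which makes CTP from UTP, stood at 14.2, 22.2, 20.4 and 17.4 CPM against 1.22 to 3.55 CPM (median 2.39) in the vehicle mice. Its log2 fold change was 2.98 ± 0.19 (edgeR adjusted p = 2.73e-11) and 3.02 ± 0.48 against intraperitoneal saline. Uck2, a uridine-cytidine kinase of the salvage route, stood at 23.3, 25.5, 33.8 and 30.4 CPM against at most 7.73 CPM (2.37 ± 0.14). In both genes the groups did not overlap. Cad, whose protein carries the opening activities of de novo synthesis, rose by 1.39 ± 0.27, with its lowest galactosamine mouse at 14.6 CPM and its highest vehicle mouse at 16.4 CPM. Umps, the last step to UMP, had 0.50 ± 0.11 against all vehicle mice and was not called against intraperitoneal saline. Dhodh, the mitochondrial step between them, had -1.08 ± 0.23 and was likewise called only against all vehicle mice, and the library total gave -0.24. Nme1 and Nme2, nucleoside diphosphate kinases that make UTP and CTP, had -0.43 ± 0.17 and -1.24 ± 0.12 (0.39 and -0.40 by library total). On the breakdown side, Upp2, which splits uridine, stood at 1.67 to 2.74 CPM against 18.9 to 251 CPM (-5.56 ± 0.60). Dpyd, Dpys and Upb1, the consecutive enzymes of uracil breakdown, had -2.46 ± 0.31, -2.91 ± 0.20 and -2.15 ± 0.13. All 4 breakdown genes were below every vehicle mouse in every galactosamine mouse. Over the 23 tested genes, 5 were higher and 8 lower, 3 and 7 in both comparisons, with a median of 0.02, and the share called was near the 52.5% of all genes. Under library-total scaling 15 were higher and 6 lower, with a median of 0.88.

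**Figure D3:**
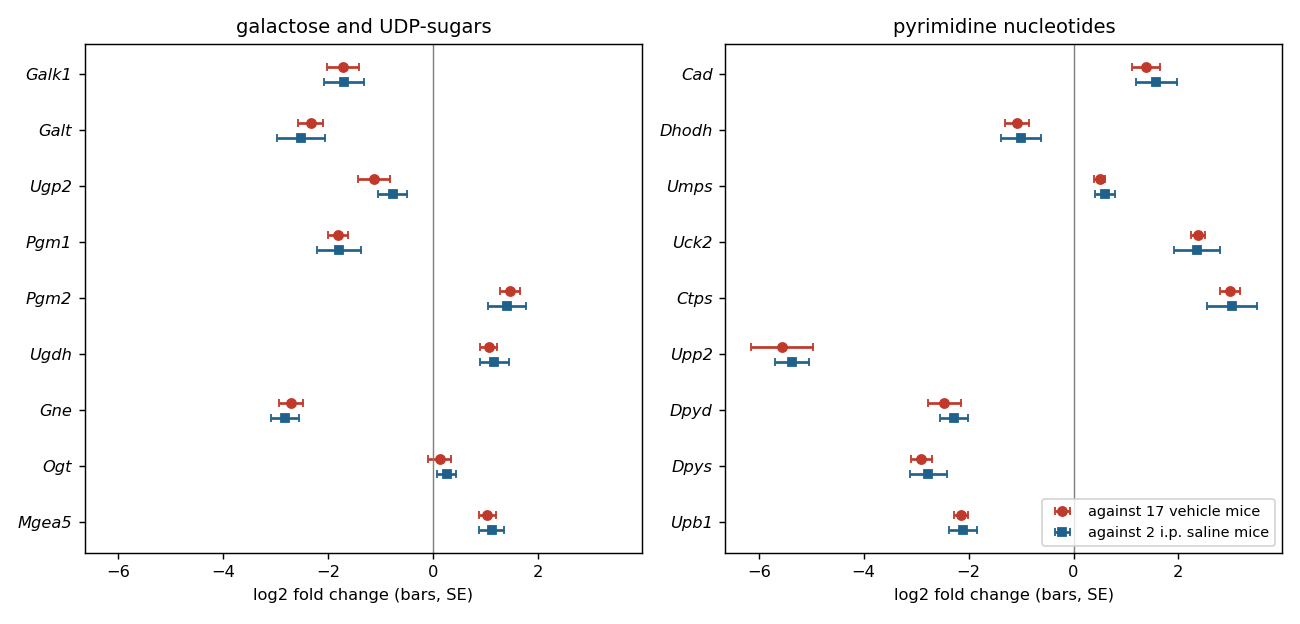
Log2 fold changes with SE of named genes of galactose and UDP-sugar metabolism and of pyrimidine metabolism, against 17 vehicle mice (circles) and 2 intraperitoneal saline mice (squares). Galk1 and Galt lie left of 0 and Ctps, Uck2 and Cad right of 0 in both comparisons.

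Genes of ribosome production were higher. RNA polymerase I transcribes ribosomal RNA, and a large set of nucleolar proteins processes it and assembles the subunits; Myc is a transcription factor that drives many of their genes. All 27 tested genes of this list were called higher and 0 lower against all vehicle mice, and 22 in both comparisons, with a median of 1.78. Nop58, a core protein of the box C/D particles that guide RNA methylation, stood at 32.8, 90.0, 130 and 79.2 CPM against 2.79 to 19.8 CPM (2.85 ± 0.35; edgeR adjusted p = 5.67e-07). Tsr1, which helps to mature the small subunit, stood at 23.2, 51.9, 50.6 and 45.9 CPM against 4.88 to 14.1 CPM (2.51 ± 0.23). Mouse 2 was the lowest in both and still above every vehicle mouse. The nucleolar genes Gnl3, Rrp12 and Nop2 had 2.52 ± 0.25, 2.42 ± 0.21 and 2.36 ± 0.19. Myc stood at 11.4, 40.6, 49.0 and 22.7 CPM, and its lowest galactosamine mouse overlapped the highest vehicle mouse at 14.4 CPM (3.04 ± 0.36). Called genes of the list numbered 27 higher and 0 lower with the library total as well.

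Their promoters were searched on both strands for the E-box CACGTG, the sequence to which Myc and related factors bind. Windows of 300 bases (250 before to 50 after the start) came from RefSeq, build GRCm38.p6, and covered 21 of the 27 genes. The motif was found in 5 (23.8%), those of Rrn3, Pes1, Nop2, Utp20 and Tsr1, beside 8.1% of 27025 genes. The window of Tsr1 is shown as the example with a called rise in both comparisons, from chr11:74897830-74898129 on the plus strand, with the E-box in capitals.
Tsr1: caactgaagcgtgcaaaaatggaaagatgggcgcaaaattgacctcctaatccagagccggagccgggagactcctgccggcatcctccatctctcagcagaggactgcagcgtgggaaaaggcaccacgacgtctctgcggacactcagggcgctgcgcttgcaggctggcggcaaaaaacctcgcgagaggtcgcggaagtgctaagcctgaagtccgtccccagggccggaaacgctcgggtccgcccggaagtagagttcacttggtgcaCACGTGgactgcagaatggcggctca
A match is a description of the letters and not evidence of binding.

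Most p53 target genes were higher. The p53 protein is activated by damage to DNA and by disturbed ribosome production, and its targets halt the cell cycle or promote apoptosis. Of 26 tested genes, 17 were higher and 4 lower against all vehicle mice, and 15 and 2 in both comparisons, with a median of 2.07. Cdkn1a, which encodes the cell cycle inhibitor p21, stood at 182, 226, 198 and 215 CPM against 4.18 to 26.6 CPM (median 15.2), and its log2 change was 3.78 ± 0.29 (edgeR adjusted p = 4.57e-10). Mdm2, which encodes the ubiquitin ligase that degrades p53, stood at 21.7, 67.6, 74.8 and 55.5 CPM against 6.90 to 13.7 CPM (2.51 ± 0.20). Both lay above all vehicle mice. Eda2r, a death domain receptor of the TNF receptor family, had 5.04 ± 0.47, and Psrc1 and Ckap2, which act on spindle microtubules, had 5.89 ± 0.55 and 4.74 ± 0.50. Trp53 itself stood at 52.9 to 58.7 CPM against 13.5 to 22.2 CPM (1.63 ± 0.10). Other targets had small or negative values. Perp and Rps27l had -0.80 ± 0.12 and -0.61 ± 0.11, which the library total turned to 0.04 and 0.22. Bbc3, which encodes the apoptosis inducer PUMA, had -0.89 ± 0.33 and was called against all vehicle mice only, with -0.09 under the library total. Gdf15 had 0.03 ± 0.64 and Fas had -0.06 ± 0.16, neither called. With the library total 21 genes of the list were higher, Fas among them (0.78), and 0 lower.

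Genes of the oxidative stress regulator NRF2 and of the heat shock response rose in part. NRF2 drives glutathione synthesis, the pentose phosphate route to NADPH and several conjugating enzymes. Of its 20 tested targets, 11 were higher and 4 lower against all vehicle mice, 11 and 3 in both, with a median of 1.73. Srxn1, which repairs oxidised peroxiredoxins, stood at 506, 445, 339 and 315 CPM against 17.4 to 50.9 CPM (3.68 ± 0.22; edgeR adjusted p = 1.40e-11). Cbr3, a carbonyl reductase, stood at 32.2, 27.4, 18.4 and 31.5 CPM against at most 1.28 CPM (4.98 ± 0.21). Mouse 2 was the highest galactosamine mouse for both. Abcc4, an efflux pump of the sinusoidal membrane, had 3.59 ± 0.17, and G6pdx, which opens the pentose phosphate route, 2.60 ± 0.16. The subunits of glutamate-cysteine ligase went apart: Gclc, the catalytic one, rose by 2.55 ± 0.13 to 462 to 717 CPM, while Gclm, the modifier, had -0.23 ± 0.12 and was not called; the library total gave 0.61 for Gclm. Nqo1 had 1.88 ± 0.13. Ces1g, a carboxylesterase of the list, had -2.48 ± 0.27. Slc7a11, the cystine transporter, reached 0.371 to 0.959 CPM from at most 0.104 CPM, so its level stayed low. Of 13 heat shock genes, 9 were higher and 1 lower, 8 and 0 in both comparisons. Hspa1a had 2.23 ± 0.37, its co-chaperones Hsph1 and Dnajb1 1.68 ± 0.30 and 1.41 ± 0.15, Hsp90aa1 1.66 ± 0.38, Hspb1 1.32 ± 0.20 and Bag3 1.13 ± 0.27. Hsp90aa1 and Bag3 overlapped the vehicle range in at least 1 mouse.

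NRF2 binds the antioxidant response element, whose core TGACNNNGC was found in 7 of the 17 list members with a RefSeq window (41.2%), beside 14% of all genes. Against all vehicle mice, Me1 among these 7 was lower (-1.49 ± 0.32) and Gclm was not called. The matches are printed 5′ to 3′ on the strand that carries the motif, with its fixed letters in capitals.
Gclm: TGACggtGC
Srxn1: TGACctaGC
Txnrd1: TGACaaaGC
Abcc4: TGACcccGC
G6pdx: TGACtgaGC
Pgd: TGACattGC
Me1: TGACtcaGC
The GRCm38.p6 window of Srxn1, the list member with both a match and the largest rise, is chr2:152105274-152105573 on the plus strand. Its match lies 28 bases after the start and reads on the opposite strand, so the capitals below are the reverse complement.
Srxn1: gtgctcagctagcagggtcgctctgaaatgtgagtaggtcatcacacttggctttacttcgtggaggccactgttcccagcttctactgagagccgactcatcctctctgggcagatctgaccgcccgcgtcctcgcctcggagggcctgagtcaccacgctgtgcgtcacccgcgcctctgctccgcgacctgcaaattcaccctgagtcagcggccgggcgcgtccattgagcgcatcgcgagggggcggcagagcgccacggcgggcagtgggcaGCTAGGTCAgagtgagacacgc

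Chaperones and folding enzymes of the endoplasmic reticulum (ER) were lower. These proteins fold secreted and membrane proteins, and their genes are raised by the unfolded protein response when unfolded protein accumulates. Of 18 tested genes, 16 were lower and 0 higher against all vehicle mice, 14 and 0 in both, with a median of -1.74. Calr, the calcium-binding lectin chaperone calreticulin, stood at 245, 179, 166 and 179 CPM against 502 to 893 CPM (-1.85 ± 0.14; edgeR adjusted p = 4.66e-10), and the library total gave -1.01. Herpud1, which takes part in the degradation of ER proteins, stood at 77.1, 26.7, 45 and 65.6 CPM against 125 to 550 CPM (-2.60 ± 0.39). Neither gene's groups overlapped. Sdf2l1, Pdia4, Sel1l, Manf and Edem1 had -2.42 ± 0.32, -2.29 ± 0.21, -2.18 ± 0.21, -2.14 ± 0.27 and -1.92 ± 0.16. Hspa5, the chief ER chaperone BiP, had -0.67 ± 0.23 against all vehicle mice, was not called against intraperitoneal saline, and turned to 0.17 with the library total. Under that scaling 12 genes of the list were lower and 2 higher. Genes of the ATF4 branch, which responds to amino acid shortage and ER stress, had 7 higher and 6 lower of 20, beside 25.1% and 27.5% of all genes. In both comparisons 3 were higher and 3 lower, a share near the 28.0% of all genes, and library-total scaling gave 12 higher and 3 lower. Sesn2 had 2.41 ± 0.17 and Psat1, a serine synthesis enzyme, 1.67 ± 0.28, whereas Atf5, Shmt2 and Chac1 had -2.24 ± 0.28, -2.17 ± 0.24 and -2.39 ± 0.71.

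The ER stress response element, CCAAT and CCACG with 9 free bases between them, is the known promoter sequence of this chaperone family. It was found in 7 of 16 list members with a window (43.8%) and in 37 of 27025 genes (0.1%). Canx, among these 7, was not called against all vehicle mice (-0.29 ± 0.26). In each match below the fixed letters are in capitals.
Hspa5: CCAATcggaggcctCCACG
Hsp90b1: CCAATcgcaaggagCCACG
Dnajc3: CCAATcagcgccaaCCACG
Pdia6: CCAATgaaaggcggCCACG
Calr: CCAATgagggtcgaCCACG
Canx: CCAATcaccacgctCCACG
Creld2: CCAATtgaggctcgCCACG
The window of Calr, which fell in both comparisons, is chr8:84846882-84847181 (GRCm38.p6) on the minus strand and is printed in the direction of transcription. Its element begins 162 bases before the start, on the opposite strand, and the capitals are its reverse complement.
Calr: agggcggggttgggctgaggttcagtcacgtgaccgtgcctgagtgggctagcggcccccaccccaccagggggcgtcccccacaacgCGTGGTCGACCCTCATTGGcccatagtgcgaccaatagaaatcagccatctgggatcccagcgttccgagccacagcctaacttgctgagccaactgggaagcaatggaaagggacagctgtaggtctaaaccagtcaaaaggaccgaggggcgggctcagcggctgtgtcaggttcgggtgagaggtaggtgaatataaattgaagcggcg

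Genes of secreted liver proteins were lower. All 7 hepatocyte marker genes were lower against all vehicle mice, whereas 6 were lower in both comparisons and 4 by library total, with 0 higher. Their summed level was 25645 to 34300 CPM in the galactosamine mice against 50677 to 118204 CPM in the vehicle mice. The part of this loss in the falls below was not tested. Of 25 plasma protein genes, 23 were lower and 0 higher in both comparisons, with a median of -1.50 (18 lower and 2 higher by library total). Alb stood at 16436, 25675, 20483 and 19678 CPM against 26178 to 82224 CPM (-1.19 ± 0.24), and was not called with the library total (-0.32). Ttr, Ahsg and Vtn had -1.86 ± 0.14, -1.90 ± 0.18 and -2.05 ± 0.19. Igfals, which carries insulin-like growth factors in blood, had -3.38 ± 0.37, and the histidine-rich glycoprotein gene Hrg had -3.37 ± 0.20. Of 25 coagulation and complement genes, 23 were lower against all vehicle mice and 20 in both, with 0 higher and a median of -1.75, and 19 were lower by library total. Klkb1, the prekallikrein of the contact system, stood at 2.96, 1.24, 0.993 and 1.51 CPM against 14.3 to 62.4 CPM (-4.21 ± 0.39; edgeR adjusted p = 7.93e-09). The clotting factor genes F11 and F7 had -3.44 ± 0.24 and -2.87 ± 0.22, and the complement gene C8a -2.86 ± 0.20.

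Acute phase transcripts, which hepatocytes raise in most kinds of inflammation, were lower. Of 23 tested genes, 19 were lower and 1 higher against all vehicle mice, 16 and 1 in both, with a median of -1.75, and 11 and 2 by library total. Hp, the haemoglobin scavenger haptoglobin, stood at 1254, 694, 603 and 747 CPM against 2919 to 8414 CPM (-2.61 ± 0.30; edgeR adjusted p = 1.45e-07). Apcs, serum amyloid P, stood at 22.7, 13.2, 11.3 and 13.7 CPM against 80.8 to 196 CPM (-2.97 ± 0.27). Both lay below every vehicle mouse. The fibrinogen chain gene Fga had -2.50 ± 0.24. The 1 higher gene was Cebpd, a transcription factor of the acute phase response (1.21 ± 0.35). The strongly inducible members varied widely among the vehicle mice: Saa2 ranged there from 21.8 to 2209 CPM, Saa1 from 80.0 to 2432 CPM and Lcn2 from 9.32 to 772 CPM. Their log2 fold changes were -4.23 ± 1.21, -2.35 ± 0.76 and -2.97 ± 1.01, and the groups overlapped for all 3. Among mice numbered 1 to 4 only, Lcn2 had 0.19 and Saa2 -1.01, neither called. On the library-total scale, 11 genes of the list were lower and 2 higher, and Lcn2 and Saa1 were not called.

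Genes of amino acid breakdown, the urea cycle and glucose production were lower. Of the 25 genes of the urea cycle and amino acid breakdown, 25 were lower against all vehicle mice and 23 in both, with a median of -2.69, and 23 were lower with the library total. Cth, which makes cysteine from cystathionine, stood at 31.6, 12.0, 11.7 and 12.8 CPM against 174 to 483 CPM (-4.05 ± 0.34; edgeR adjusted p = 1.67e-09). Ass1, a urea cycle enzyme and hepatocyte marker, stood at 447, 355, 282 and 243 CPM against 2345 to 6981 CPM (-3.39 ± 0.28). Neither overlapped. Hal, Tat and Sds, which degrade histidine, tyrosine and serine, had -3.99 ± 0.33, -3.51 ± 0.38 and -3.25 ± 0.37, and Cps1, the entry of the urea cycle, -3.05 ± 0.23. Among 20 genes of gluconeogenesis and glycolysis, 13 were lower and 3 higher, 12 and 1 in both, and 11 lower and 7 higher by library total. Pck1, which commits carbon to glucose synthesis, stood at 91.2, 29.7, 29.5 and 39.8 CPM against 218 to 1556 CPM (-4.24 ± 0.57). Pkm, the pyruvate kinase of most tissues outside the liver, had 1.13 ± 0.24. G6pc, which releases free glucose, had -5.19 ± 0.62, the liver pyruvate kinase gene Pklr -3.68 ± 0.47 and the glucose transporter gene Slc2a2 -3.51 ± 0.28. Glycogen genes were lower too, 9 of 11 with 1 higher, and 7 and 0 in both comparisons. Pygl, which degrades glycogen, had -3.26 ± 0.21, and Gys2, which builds it, -2.57 ± 0.21.

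Genes of lipid synthesis were lower. All 12 genes of fatty acid synthesis were lower against all vehicle mice, and 9 in both, with a median of -2.37, and 10 by library total. Acacb, which makes the malonyl-CoA that restrains fatty acid oxidation, stood at 0.719 to 2.34 CPM against 15.0 to 58.3 CPM (-4.58 ± 0.41). Scd1, the desaturase, stood at 363, 177, 173 and 127 CPM against 1423 to 7578 CPM (-3.87 ± 0.44), and Fasn had -3.64 ± 0.63. Cholesterol synthesis had 19 of 20 genes lower and 0 higher, 16 and 0 in both and by library total, with a median of -2.52. Fdps, which makes farnesyl diphosphate, stood at 14.9, 6.03, 4.42 and 6.19 CPM against 92.0 to 354 CPM (-4.66 ± 0.50; edgeR adjusted p = 6.92e-08). Insig1, a feedback regulator of the pathway, had -4.35 ± 0.26, Nsdhl -4.04 ± 0.41 and Hmgcs1 -2.28 ± 0.41. Fatty acid oxidation and ketogenesis had 14 of 20 lower and 1 higher (9 and 1 in both) and a median of -0.90, which was -0.06 with the library total (5 higher, 6 lower). Cpt1a, the gate to mitochondrial oxidation, had -2.48 ± 0.30, and Bdh1, a ketone body enzyme, -2.08 ± 0.22. The 1 higher gene was the acyl-CoA thioesterase gene Acot1 (0.84 ± 0.18). Of 10 lipid droplet genes, 3 were higher and 6 lower, 2 and 3 in both, and 3 and 4 by library total. Cidec, which promotes the fusion of lipid droplets, had 4.50 ± 0.32, and Hilpda, an inhibitor of lipolysis, 1.66 ± 0.30. The lower members in both were Cideb, a relative of Cidec (-3.91 ± 0.36), the droplet coat protein gene Plin5 (-2.39 ± 0.25) and Fitm1 (-2.31 ± 0.29).

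Genes of detoxification and bile acid handling were mostly lower, with some that were not. Of 24 cytochrome P450 and other phase 1 genes, 20 were lower and 2 higher, 16 and 2 in both, with a median of -1.63. Cyp2c29 stood at 112 to 135 CPM against 817 to 1488 CPM (-3.23 ± 0.17), and the retinoic acid hydroxylase gene Cyp26a1, the oxidase gene Aox3 and Cyp2b10 had -4.57 ± 0.69, -3.60 ± 0.32 and -3.12 ± 0.25. Cyp2e1, which activates several small toxicants, fell by only 0.66 on the log2 scale (SE 0.14), with its galactosamine mice at 1734 to 2068 CPM overlapping the vehicle range of 1924 to 3721 CPM, and turned to 0.18 with the library total. Cyp4a14, a fatty acid hydroxylase, rose by 0.95 ± 0.24. Of 18 conjugation genes, 15 were lower and 1 higher, 14 and 1 in both, with Sult1d1 (-3.33 ± 0.66) and Ugt2a3 (-2.95 ± 0.29) lower and Ugt2b35 (0.84 ± 0.21) higher. Of 22 bile acid genes, 18 were lower and 1 higher, 14 and 1 in both, with a median of -2.14, and the higher gene was Abcc4. The bile salt export pump gene Abcb11 stood at 8.90 to 12.0 CPM against 77.8 to 189 CPM (-3.61 ± 0.22; edgeR adjusted p = 1.79e-11). The uptake carrier gene Slco1a1 and the bile acid synthesis gene Akr1d1 had -3.29 ± 0.53 and -3.25 ± 0.40. Cyp7a1, the rate-limiting enzyme of bile acid synthesis, ranged from 2.79 to 615 CPM among the vehicle mice and had -1.95 ± 0.98, not called (edgeR adjusted p = 0.101).

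Of 20 genes of hepatocyte transcription factors, 11 were lower and 1 higher against all vehicle mice, with a median of -0.74 that was 0.09 with the library total (6 higher, 5 lower). In both comparisons 3 were lower and 0 higher, a share near the 16.0% lower over all genes. Creb3l3, a regulator of fasting metabolism, had -2.54 ± 0.31 and Rxra, the partner of many nuclear receptors, -1.42 ± 0.23. Hnf4a, which maintains hepatocyte identity, stood at 138, 93.0, 69.4 and 110 CPM against 135 to 223 CPM (-0.82 ± 0.14), was not called against intraperitoneal saline (-0.73 ± 0.28), and had 0.03 with the library total. Cebpa had -0.92 ± 0.15, and -0.10 with the library total. Mitochondrially encoded genes were lower in 5 of 13, and in 2 of 13 in both comparisons, mt-Nd1 (-1.58 ± 0.30) and mt-Nd2 (-1.89 ± 0.31), and in 2 by library total. The 2 of 13 are a share near the 16.0% of all genes called lower in both. Without galactosamine mouse 2, 2 of 13 were called against all vehicle mice. The summed level of the 13 overlapped between the groups, at 54525 to 130862 CPM against 58062 to 363025 CPM.

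Most chemokine and cytokine genes were higher against all vehicle mice. Of 22 tested chemokine, cytokine and adhesion genes, 15 were higher and 0 lower against all vehicle mice, and 9 and 0 in both, with a median of 1.32. Against intraperitoneal saline 10 were higher and 2 lower, the neutrophil attractant gene Cxcl1 (-1.75 ± 0.35) and Cxcl9 (-1.06 ± 0.32), which were not called against all vehicle mice. Ccl2, which attracts monocytes, stood at 12.8, 35.1, 30.0 and 19.8 CPM against 0.190 to 10.9 CPM (2.90 ± 0.58; edgeR adjusted p = 0.000207). Ccl7 and Ccl4 had 3.74 ± 0.67 and 3.14 ± 0.57 and did not overlap the vehicle range either. Il1rn, the interleukin 1 receptor antagonist, and Cxcl14 had 2.15 ± 0.47 and 1.40 ± 0.27, and Sele, at 0.401 to 0.925 CPM, had 2.60 ± 0.60. Tnf stood at 0.803 to 1.27 CPM against at most 0.815 CPM (1.49 ± 0.61), was called against all vehicle mice only, and lost the call without any 1 of the 4 galactosamine mice. Of 20 interferon-stimulated genes, 0 were called higher and 3 lower against all vehicle mice, and 2 were lower in both, Iigp1 (-1.71 ± 0.44) and Bst2 (-0.95 ± 0.13, or -0.12 by library total). The shares were below the 52.5% called and the 16.0% lower in both over all genes. Without galactosamine mouse 2, 2 were higher and 3 lower. The library total made 12 of these 20 higher and 0 lower.

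Markers of recruited monocytes and macrophages were higher in 5 of 7 genes, 4 in both comparisons, with a summed level of 73.5 to 141 CPM against 21.7 to 128 CPM in the vehicle mice. Trem2 stood at 4.16, 4.08, 4.83 and 4.02 CPM against 0.273 to 2.57 CPM (1.90 ± 0.34), and F13a1 and Gpnmb had 2.83 ± 0.51 and 2.54 ± 0.60. Of 7 Kupffer cell markers, 3 were higher and 0 lower (7 and 0 by library total). Their sums were 412 to 590 CPM against 194 to 520 CPM. In both comparisons 2 of the 7 were higher, beside 12.0% of all genes. For every marker list here, the shares over all genes were 25.1% higher and 27.5% lower, or 54.6% and 11.5% by library total. Marco, a scavenger receptor, stood at 64.2, 65.5, 79.9 and 54.0 CPM against 3.26 to 25.3 CPM (2.08 ± 0.38), whereas Clec4f, the marker most specific to Kupffer cells, had -0.02 ± 0.19 and 0.79 with the library total. Neutrophil markers were detectable enough to test in 4 of 7 genes, of which 1 was higher (3 without intraperitoneal saline mouse 8 and gavage mice 1 and 18), with sums of 20.6 to 37.5 CPM against 0.716 to 54.7 CPM. All 4 were higher by library total, and 3 against intraperitoneal saline, among them S100a8 (3.99 ± 0.94) and S100a9 (3.13 ± 0.50), which were not called against all vehicle mice. T and NK cell markers summed to 8.10 to 10.8 CPM and B cell markers to 9.30 to 14.8 CPM, overlapping the vehicle ranges of 2.09 to 9.99 and 5.27 to 13.3 CPM. In each of these lists 1 of 6 markers was higher, a smaller share than the 25.1% over all genes. By library total 5 of 6 were higher in each, beside 54.6% of all genes. Sinusoidal endothelial, stellate and cholangiocyte markers also overlapped in their sums. Of 7 sinusoidal endothelial markers, 1 was higher and 2 lower, against 6 and 0 by library total. Of 7 stellate cell markers 2 were higher, against 7 by library total. By TMM the shares called in these lists were below the 52.5% of all genes. Of 6 cholangiocyte markers, 2 were higher and 0 lower (4 and 0 by library total), namely Epcam (1.34 ± 0.35) and Sox9 (0.65 ± 0.24), and neither was called against intraperitoneal saline. Krt19, a cholangiocyte keratin, had -0.09 ± 0.31 and 0.69 by library total, not called by either scaling. No marker was at 0 in all 4 galactosamine mice. The part of these cells in the chemokine result was not tested.

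Genes of cell death, early response and tissue repair moved in part. Of 21 genes of death receptor signalling, 8 were higher and 4 lower, 7 and 2 in both, with a median of 0.35, and the share called was near the 52.5% of all genes. Under library-total scaling 18 were higher and 0 lower. Besides Tnfrsf10b, the TWEAK receptor gene Tnfrsf12a stood at 123, 148, 151 and 151 CPM against 5.40 to 20.5 CPM (3.90 ± 0.23; edgeR adjusted p = 1.36e-11). The pro-apoptotic Bid, the anti-apoptotic Bcl2l1 and the necroptosis effector Mlkl had 1.66 ± 0.16, 1.52 ± 0.16 and 1.13 ± 0.23, and the pore-forming Gsdmd had -1.08 ± 0.17 (-0.26 with the library total). Immediate early genes were higher in 10 of 19 and lower in 2, beside 25.1% higher and 27.5% lower over all genes. In both comparisons 7 were higher and 1 lower, beside 12.0% and 16.0%. By library total 11 were higher and 0 lower, beside 54.6% and 11.5%. Maff, Klf6 and Egr2 had 3.33 ± 0.38, 2.31 ± 0.31 and 2.31 ± 0.57, and Ier3 1.74 ± 0.53. Cell cycle genes were higher in 8 of 21 and lower in 3, a share near the 52.5% called over all genes, and 15 were higher and 0 lower by library total. In both comparisons 2 were higher: Pcna, the sliding clamp of DNA replication (1.10 ± 0.17), and Mcm5, a subunit of the replicative helicase (1.10 ± 0.29). Ccnd1, which opens the G1 phase, had 1.12 ± 0.25 against all vehicle mice and was not called against intraperitoneal saline. Of 21 cytoskeletal and injury genes, 12 were higher and 1 lower, 7 and 0 in both, and 15 and 0 by library total. Tubb6, a beta-tubulin, stood at 91.3, 116, 102 and 103 CPM against 5.68 to 22.6 CPM (3.31 ± 0.22), and the galectin gene Lgals3, S100a11 and Krt8 had 2.08 ± 0.51, 1.47 ± 0.25 and 0.81 ± 0.22. Among 19 matrix and stellate cell genes, 7 were higher and 1 lower, 6 and 1 in both, the lower one being the fibronectin gene Fn1 (-2.35 ± 0.21), and the 8 called of 19 were a smaller share than the 52.5% of all genes. By library total, 16 were higher and 1 lower. The macrophage elastase gene Mmp12 stood at 17.5, 42.0, 68.8 and 24.6 CPM against 0.127 to 6.05 CPM (4.79 ± 0.54). The collagenase gene Mmp13, Thbs1 and the protease inhibitor gene Timp1 had 3.77 ± 0.57, 3.22 ± 0.49 and 2.29 ± 0.67. The haem-degrading enzyme gene Hmox1 stood at 75.6, 294, 275 and 129 CPM against 24.2 to 58.5 CPM (2.40 ± 0.22), and the manganese exporter gene Slc30a10 had -3.01 ± 0.30.

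The last comparison asked which of these changes set galactosamine apart from the other 6 toxicants. In 1 model of all 57 mice, a gene had to differ in the same direction, at an adjusted p under 0.05, from the vehicle mice and from each toxicant in its own contrast. Of 17177 genes, 1461 met this (8.51%), 571 higher (3.32%) and 890 lower (5.18%). Under library-total scaling 1928 were higher and 104 lower, so the balance of directions depends on the scaling. Thioacetamide (TAA) had been given to 5 mice, acetaminophen (APAP) to 6, alpha-naphthyl isothiocyanate (ANIT) to 4, and carbon tetrachloride (CCl4), concanavalin A (ConA) and 4,4'-methylene dianiline (MDA) to 7 each, by routes and in vehicles that differed. Among the lists, 10 of 26 p53 targets and 9 of 27 ribosome biogenesis genes were higher than with vehicle and every other toxicant. Lower than in all these groups were 14 of 18 ER chaperones and 16 of 25 coagulation and complement genes. So were 13 of 23 acute phase genes and 11 of 25 urea and amino acid genes. These list counts are by TMM and are not given by library total, under which only 104 of all genes were lower. Among 13 heat shock genes and 22 chemokine and cytokine genes, 0 met the condition, which is near the overall share. CPM in this comparison are scaled over all 57 mice and differ slightly from those above.

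The genes furthest above the nearest other toxicant were led by Inka2, which encodes an inhibitor of the actin-regulating kinase PAK4. It stood at 6.89 ± 1.6 CPM (SD) in galactosamine mice and at a mean of at most 0.149 CPM in every other group, and differed from APAP, the nearest, by 5.45 ± 0.75 (SE) on the log2 scale (edgeR adjusted p = 8.68e-08). Gtse1 stood at 24.2 ± 5.1 CPM with galactosamine and at 1.50 ± 0.44 CPM with ConA (4.00 ± 0.44). Phlda3 stood at 35.6 ± 4.4 CPM and at 3.71 ± 1.2 CPM with ConA (3.26 ± 0.37). Psrc1 and Ddit4l exceeded the nearest toxicant by 3.35 ± 0.71 and 3.33 ± 0.60. Other p53 targets did not meet the condition: Cdkn1a stood at 195 ± 17 CPM, 299 ± 27 CPM with ConA and 258 ± 54 CPM with TAA, and Mdm2 stood at 52.1 ± 22 CPM and 51.4 ± 17 CPM with ConA, though Mdm2 met it with the library total. Cplane1 met the rule with a difference of 4.07 ± 0.89 to CCl4, but its galactosamine mice ranged from 0.919 to 39.8 CPM and its vehicle mice from 0.292 to 26.3 CPM, and in the fit of galactosamine and vehicle mice alone it was not called (edgeR adjusted p = 0.0676).

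On the lower side, acute phase genes were at the head, and their means with most other toxicants were above the vehicle mean. Lcn2 averaged 14.7 ± 12 CPM with galactosamine, 110 ± 170 CPM in vehicle mice and 452 ± 110 CPM with CCl4, the nearest toxicant, and 16936 ± 2044 CPM with ConA (difference to CCl4 -4.94 ± 1.05; edgeR adjusted p = 0.000210). Apcs averaged 14.6 ± 5.2 CPM, against 140 ± 25 CPM with CCl4 and 598 ± 274 CPM with ANIT. Hp averaged 790 ± 300 CPM, against 4633 CPM or more in every other group. All 4 galactosamine mice were below all other 53 mice for Apcs and Hp. Saa2 met the rule narrowly against TAA (-2.94 ± 1.16; adjusted p = 0.0490, edgeR) and no longer did so with the library total. Leap2, which encodes a liver peptide that blocks the ghrelin receptor, Cyp2c70, a mouse-specific bile acid hydroxylase, and Cenpm, a centromere protein, lay below the nearest toxicant by -3.13 ± 0.49, -2.90 ± 0.60 and -2.90 ± 0.66. Calr, at 184 ± 38 CPM, was also below every other group, the nearest being TAA at 577 ± 150 CPM. Cyp8b1, the largest of the 12 falls against vehicle described above, did not meet the condition: it averaged 1.86 ± 1.8 CPM, against 6.81 ± 7.1 CPM with TAA, and the contrast with TAA was not called (edgeR adjusted p = 0.189). Among the pathway enzymes, Galt was lower than in every other group (ConA nearest, -1.10 ± 0.20), though not with the library total. Ctps differed from TAA by 0.21 ± 0.30, not called, but met the condition with the library total.

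**Figure D4:**
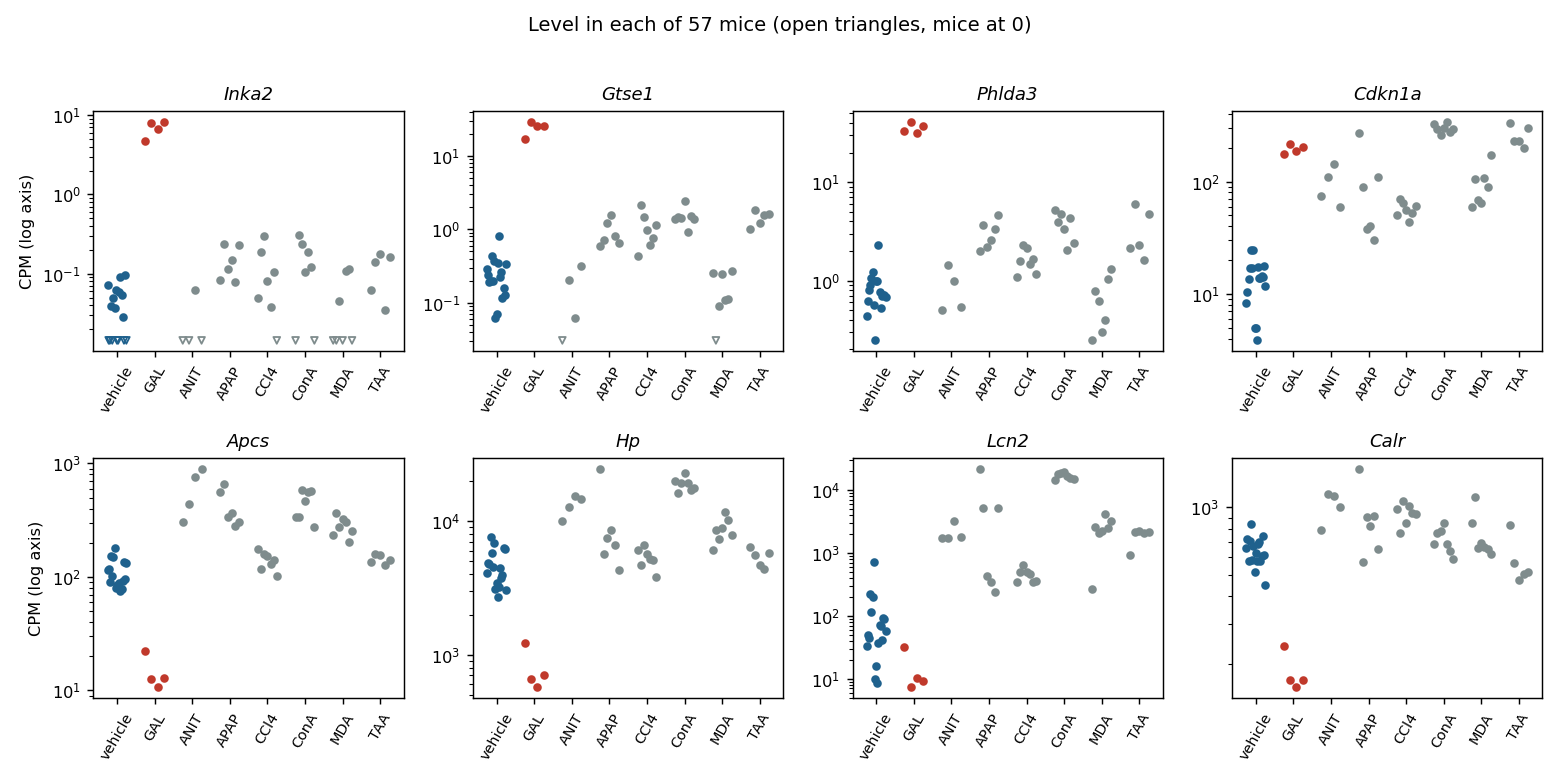
Levels in CPM (log axis, scaled over 57 mice) of 8 genes in vehicle, galactosamine and the 6 other toxicant groups; each point is 1 mouse and open triangles are mice at 0. Inka2, Gtse1 and Phlda3 are higher in the 4 galactosamine mice than in any other mouse, Cdkn1a is as high with ConA and TAA, and Apcs, Hp and Calr are lowest in the 4 galactosamine mice, while Lcn2 overlaps the vehicle mice.

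More genes were detected in the galactosamine livers, by an amount that depended on scaling. Scaled to the library total, 13049 to 13359 genes reached 1 CPM in the galactosamine mice (mean 13229 ± 134, SD), against 10354 to 11900 in the vehicle mice (11559 ± 367). The difference of 1670 genes gave an exact two-sided permutation p of 0.000334, the smallest these 5985 divisions allow, or 0.00234 adjusted over the 7 groups compared. CCl4 had the next highest counts, up to 12768. Long noncoding genes, by their GENCODE M21 class, numbered 731 to 868 against 265 to 530 in vehicle mice and 206 to 552 with the other toxicants. With TMM over 57 mice, the galactosamine mice had 11795 to 12292 genes and the vehicle mice 11315 to 11931, and the ranges overlapped (exact permutation p = 0.00100, 0.00702 adjusted). On that scale the differences to TAA (exact permutation p = 0.460) and APAP (exact permutation p = 0.133) missed the threshold. At 1 CPM by library total, 244 genes were present in all 4 galactosamine mice and in no vehicle mouse, and 17 in all vehicle mice and no galactosamine mouse; with TMM these counts were 92 and 65.

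**Figure D5:**
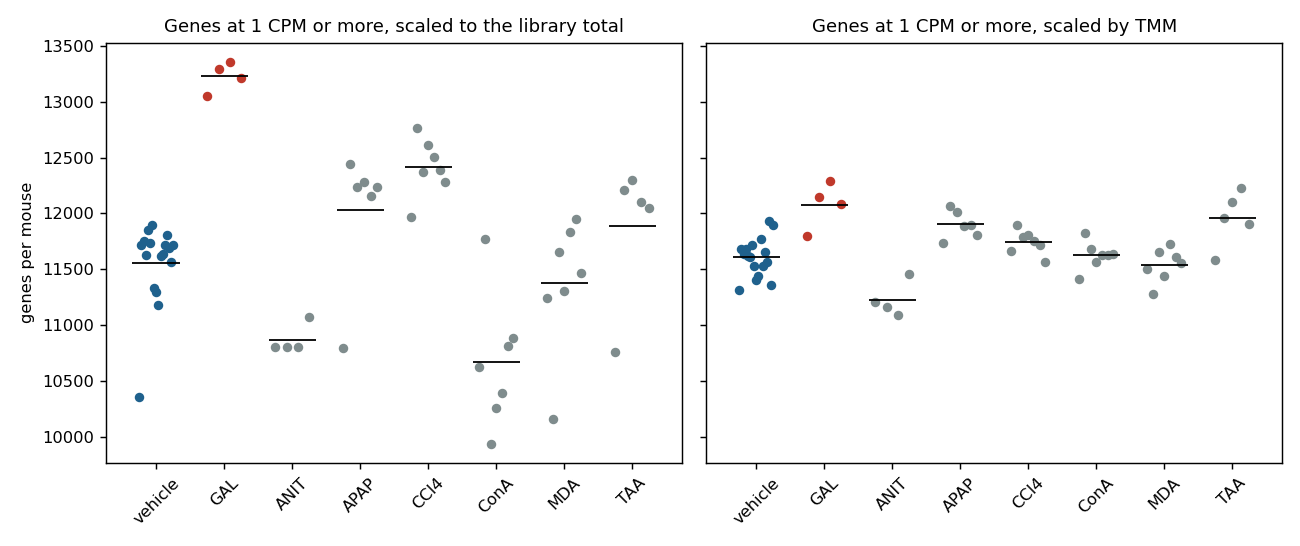
Genes at 1 CPM or more in each mouse, scaled to the library total (left) and by TMM over 57 mice (right); points are mice and bars group means. On the left the 4 galactosamine mice lie above all 53 others, and on the right they overlap the vehicle, APAP, CCl4, ConA and TAA mice.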

How the data were processed

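The values deposited by the authors are estimated counts for each gene in 57 livers, made with Salmon 1.6.0 and R 4.1.3 on GRCm39, per the submitters' processing notes. Libraries were TruSeq Stranded mRNA, single-end, per the labels' protocols. The values are not whole and were rounded here. Of 54307 gene IDs, 51482 had a symbol. Genes were filtered with filterByExpr, scaled by TMM and tested with the quasi-likelihood test of edgeR 4.0.16, Benjamini-Hochberg adjusted over all genes tested, with a threshold of 0.05. The comparisons used 4 against 17 mice, 4 against 2 mice and, for the other toxicants, all 57. CPM of the first 2 comparisons are on the TMM scale of 21 mice. Alternatives were scaling to the library total or to nuclear-encoded genes, DESeq2 1.42.0, limma 3.58.1 on log2(CPM + 1), other filters, mice left out and other vehicle sets. The code was tested on simulated data. Named genes were up to 6 per list called in both comparisons with the largest changes, defining members whatever their value, the 12 largest rises and falls among genes called in both with all 4 mice beyond all 17, and the 6 furthest beyond the nearest toxicant in each direction, the last 2 with a mean of at least 5 CPM in the higher group and a symbol that is not a predicted gene. Some other list members (Uxs1, Cebpd, Epcam, Sox9, Cxcl1, Cxcl9, S100a8, S100a9, Ces1g, Pkm, Ugt2b35, Acot1, Perp, Rps27l, Nme1, Nme2) were picked for naming once their values were known. The members and gene lists were chosen with earlier results of these data known. Replicate numbers did not pair mice and are used as names. Promoter windows are RefSeq's (GRCm38.p6), and no coordinate was carried between builds. A further search, for letters like the sterol regulatory element (TCACNCCAC) in cholesterol synthesis genes, matched Hmgcs1 only. That was 1 of 13 genes with a window (7.7%), beside 1.4% of all genes.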

Additional observations from a re-analysis of the deposited data

Results flagged for a closer look

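With 4 galactosamine mice, Dixon's test at the 95% level was applied to the levels of 198 items, and chance marks about 1 in 20 of them. Galactosamine mouse 2 stood apart from the other 3 in most of the genes it marked. Among genes of metabolism it was the highest of the 4 mice for Cyp8b1 (4.60 CPM), Thrsp (18.9 CPM), Inmt (61.3 CPM), Cyp2c70 (41.1 CPM), Galk1 (28.6 CPM), Cyp2c29 (135 CPM), Cyp2b10 (6.68 CPM) and Ugt2a3 (14.5 CPM). The same held for Fdps (14.9 CPM), Cideb (48.2 CPM), Plin5 (11.2 CPM), Nsdhl (2.77 CPM), Pck1 (91.2 CPM), Slc2a2 (24.5 CPM), Cth (31.6 CPM) and Sds (88.1 CPM). Among secreted proteins and ER chaperones it was the highest for Lcn2 (32.7 CPM), Leap2 (24.3 CPM), Hrg (127 CPM), F11 (9.05 CPM), Fn1 (157 CPM), Manf (43.8 CPM) and Calr (245 CPM). It was the lowest for Tnfrsf12a (123 CPM, the others 148 to 151 CPM) and Pcna (22.4 CPM, the others 34.1 to 35.2 CPM). In all of these genes it deviated from the other 3 towards the vehicle median. Another mouse was marked in 2 genes. Mouse 4 had 30.2 CPM of H2-T-ps against 19.5 to 21 CPM, and mouse 7 had 4.83 CPM of Trem2 against 4.02 to 4.16 CPM.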

How the results depend on the processing

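With the library total, the log2 fold changes of Gclm (0.61), Hspa5 (0.17), Fas (0.78), Cyp2e1 (0.18), Hnf4a (0.0343), Clec4f (0.79), Nme1 (0.39), Perp (0.0359) and Rps27l (0.22) changed sign with a call before or after, and with the total of nuclear-encoded genes those of Gclm (0.63), Hspa5 (0.19), Fas (0.79), Cyp2e1 (0.20), Hnf4a (0.0455), Clec4f (0.82), Krt19 (0.75), Nme1 (0.43), Perp (0.0503) and Rps27l (0.25). With nuclear-encoded genes, 7145 genes were called against intraperitoneal saline and 6763 in both comparisons. Requiring a change of at least 1 on the log2 scale left 4800 genes against all vehicle mice and 563 beyond every toxicant. Among mice numbered 1 to 4 only, 4463 genes were called against vehicle, and Lcn2 changed sign (0.19). For intraperitoneal against other vehicle mice, DESeq2 called 113 genes and a mean of at least 5 CPM left 1. Leaving out each galactosamine mouse in turn gave 6881 to 8229 genes against all vehicle mice and 1013 to 1847 beyond every toxicant. Leaving out each galactosamine or intraperitoneal saline mouse gave 1617 to 6483 against intraperitoneal saline, 1517 to 5921 in both and, for the saline mice, 0 to 129 between vehicle groups. The 17 vehicle mice were not left out singly in the first comparison. Without 1 of the 2 saline mice, a lone mouse is assumed to vary like the other group. The cause of these shifts was not tested. With no filter on low counts, 9127, 3081 and 2944 genes were called against all vehicle mice, against intraperitoneal saline and in both. With the replicate block the counts were 6750, 4084 and 3618. The numbers do not pair the mice: same-numbered galactosamine and gavage mice had correlations of deviations from -0.0734 to 0.101, and 0 of the 4 galactosamine mice correlated best with their own number. Over all single-gene alternatives, 2589 values kept their side of the threshold with no change of sign in a called value, 92 lost the call, 29 gained it and 20 changed sign with a call before or after. Values called neither before nor after, such as Krt19 by library total, could change sign and are counted among the 2589. Genes under about 1 CPM rest on few counts, and fold changes against vehicle mice at 0 depend on the offset.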
